A study of Mus musculus with 24 samples.

Results

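This account covers 52 genes of DNA replication and mitosis in mouse embryonic fibroblasts pushed towards a heart muscle identity. The genes were chosen by symbol, from 2 lists of 26: genes that act in S phase and genes that act in G2 and M phase. Each symbol was looked up in the table of raw counts, which holds 47967 genes, and all 52 were found and passed the filter on low counts. No measured value entered the choice of symbols by rule, although the lists were drawn up with earlier results of these data known.

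Expression was measured by RNA sequencing in 24 libraries, 3 in each of 8 groups. Mouse embryonic fibroblasts (MEFs) are connective-tissue cells grown from C57BL/6 embryos, here of embryonic day 13.5 to 14.5. They were left as mock controls or transduced repeatedly with retroviruses carrying 1 of 3 cocktails. The letters of GMT are read here as Gata4, Mef2c and Tbx5, as is usual in this field, with Hand2 added in GHMT and then Akt1 in AGHMT. RNA was taken at day 2 or day 7, and transduced cells were then in an induction medium. The labels do not state whether mock cells received an empty virus or that medium, whether all cells took up every factor, or whether replicates came from separate cultures. If they did not, the spread that enters each p-value is technical. As cultures were sequenced in bulk, fewer cycling cells and less of these transcripts per cell cannot be told apart.

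Library totals ran from 29345957 to 37495178 counts. Gata4, Mef2c and Tbx5 were higher in each cocktail than in the mock, and Hand2 stood at 978 ± 42.1 CPM (mean ± SD, n = 3) in GHMT at day 7 against 3.23 ± 0.199 in GMT. Akt1 was high in every group: at day 7 it stood at 451 ± 7.201 CPM in AGHMT, 382 ± 1.72 in GHMT and 385 ± 22.5 in mock. CPM, the usual share of a library's counts, was scaled here by edgeR's TMM factors. The library AGHMT, day 2, replicate 3 lay furthest from its group (root mean square deviation 0.264 on the log2 scale over all tested genes, against 0.164 to 0.209 in the others). Without it, 25 S phase and 26 G2 and M genes were lower in AGHMT than in mock at day 2, against 24 and 26 with it. Cardiomyocyte markers were called higher in each of the 6 comparisons with mock (10 of 10), where 33.9% to 38.6% of all tested genes were. Summed levels of 12 fibroblast markers were 73757 to 79988 CPM in the mock libraries at day 7 and 13260.5 to 20178 in the cocktails. Under each cocktail at day 7, 10 of the 12 were called lower (36.0%, 35.6% and 38.1% of all tested genes in GMT, GHMT and AGHMT). Called higher were 1, 2 and 1 (37.1%, 36.3% and 38.6%).

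Cells copy their DNA in S phase and divide it in M phase. Activating E2F factors, freed from the retinoblastoma protein when cyclin-dependent kinases phosphorylate it, switch on genes for origin licensing, the MCM helicase, the polymerases and the supply of nucleotides. A later wave, driven by the MuvB complex with B-Myb (Mybl2) and FoxM1 at sites called CHR, turns on cyclin B, the mitotic kinases, kinetochore proteins and spindle motors. Heart muscle cells leave the cell cycle around birth, and their proliferation genes fall with it.

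The promoters of 6 members hold letters of these motifs and are shown as the 250 bases before the transcription start, 5′ to 3′ on the gene's strand, from RefSeq on GRCm38.p6. Capitals mark matches, on either strand, to the letters searched. For E2F these were TTCCCGC as well as TTCGCGC, then also TTGCCGC, and lastly TTGGCGC. The CHR letters were TTTGAA, and those of the CCAAT box were CCAAT. By rule, Pcna, Rrm2, Cdc20 and Top2a were taken for their levels per kilobase of exon. E2f8 was taken as the member that departed most from its list. Mcm6 and Cdk1 were added after the motif matches were seen. Pcna, with a CCAAT match but no E2F match, is not shown. Of the 6 shown, Rrm2 and Mcm6 (S phase) hold E2F letters, Cdc20 and Top2a (mitosis) CHR letters, and Cdk1 and E2f8 both. They lie at chr12:24708004-24708253 on the plus strand (Rrm2), chr1:128359706-128359955 on the minus strand (Mcm6), chr4:118437344-118437593 on the minus strand (Cdc20), chr11:99024190-99024439 on the minus strand (Top2a), chr10:69352913-69353162 on the minus strand (Cdk1) and chr7:48881597-48881846 on the minus strand (E2f8).
Rrm2: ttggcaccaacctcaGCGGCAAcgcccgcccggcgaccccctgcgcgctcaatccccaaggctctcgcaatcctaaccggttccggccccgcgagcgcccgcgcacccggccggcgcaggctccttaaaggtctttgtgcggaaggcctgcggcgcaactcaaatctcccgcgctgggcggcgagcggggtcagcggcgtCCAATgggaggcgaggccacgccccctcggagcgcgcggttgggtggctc
Mcm6: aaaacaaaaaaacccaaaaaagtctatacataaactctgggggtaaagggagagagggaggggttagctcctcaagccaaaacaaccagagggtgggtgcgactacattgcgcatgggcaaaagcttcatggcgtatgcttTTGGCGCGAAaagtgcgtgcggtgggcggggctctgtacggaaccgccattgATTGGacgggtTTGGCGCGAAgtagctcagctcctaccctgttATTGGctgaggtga
Cdc20: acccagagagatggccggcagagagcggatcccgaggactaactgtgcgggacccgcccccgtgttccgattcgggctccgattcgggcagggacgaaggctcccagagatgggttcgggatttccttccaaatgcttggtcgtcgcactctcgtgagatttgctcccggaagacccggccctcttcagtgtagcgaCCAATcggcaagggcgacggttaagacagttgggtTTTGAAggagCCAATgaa
Top2a: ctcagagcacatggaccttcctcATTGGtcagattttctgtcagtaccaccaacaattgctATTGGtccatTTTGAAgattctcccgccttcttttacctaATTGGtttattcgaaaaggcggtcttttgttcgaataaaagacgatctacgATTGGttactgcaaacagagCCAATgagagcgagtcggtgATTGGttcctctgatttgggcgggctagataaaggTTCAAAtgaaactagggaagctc
Cdk1: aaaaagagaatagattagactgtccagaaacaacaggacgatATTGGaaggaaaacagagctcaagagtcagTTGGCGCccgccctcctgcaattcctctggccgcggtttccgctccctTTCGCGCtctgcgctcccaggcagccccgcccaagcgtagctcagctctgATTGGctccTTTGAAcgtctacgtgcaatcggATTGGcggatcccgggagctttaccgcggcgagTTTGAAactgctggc
E2f8: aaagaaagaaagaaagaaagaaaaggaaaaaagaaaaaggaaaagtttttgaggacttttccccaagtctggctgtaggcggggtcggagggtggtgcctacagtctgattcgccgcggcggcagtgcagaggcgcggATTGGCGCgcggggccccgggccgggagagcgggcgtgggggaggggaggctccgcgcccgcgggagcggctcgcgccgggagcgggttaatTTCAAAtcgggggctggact
The Mcm6 promoter holds pairs of E2F matches that overlap on opposite strands, and in E2f8 the CCAAT match, read on the other strand, overlaps the E2F match.

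RefSeq's table held promoters for 44 of the 52 members (23 of S phase and 21 of G2 and M), 48 promoters in all, from 250 bases before the start to 50 after it. The 2 lists differed in the letters their promoters hold. E2F letters were found in 65.4% of 26 S phase promoters and 22.7% of 22 G2 and M promoters, against 9.57% of all 32851 promoters in the table. CHR letters showed the opposite pattern, with 15.4%, 77.3% and 17.9%. CCAAT boxes were frequent in both, at 65.4% and 77.3%, against 37.4% of all promoters. In 14 of the 21 G2 and M genes CHR and CCAAT letters stood together, and Cdk1, Mki67 and Ect2 held CHR and E2F letters. Of the 23 S phase genes, 2 held CHR and E2F letters, E2f8 and Fen1. In the 100 bases before the start alone, E2F letters were in 23.1% of S phase, 9.09% of G2 and M and 3.73% of all promoters, and CHR letters in 7.69%, 27.3% and 5.77%. A match describes letters and is no measured binding site.

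**Figure D1:**
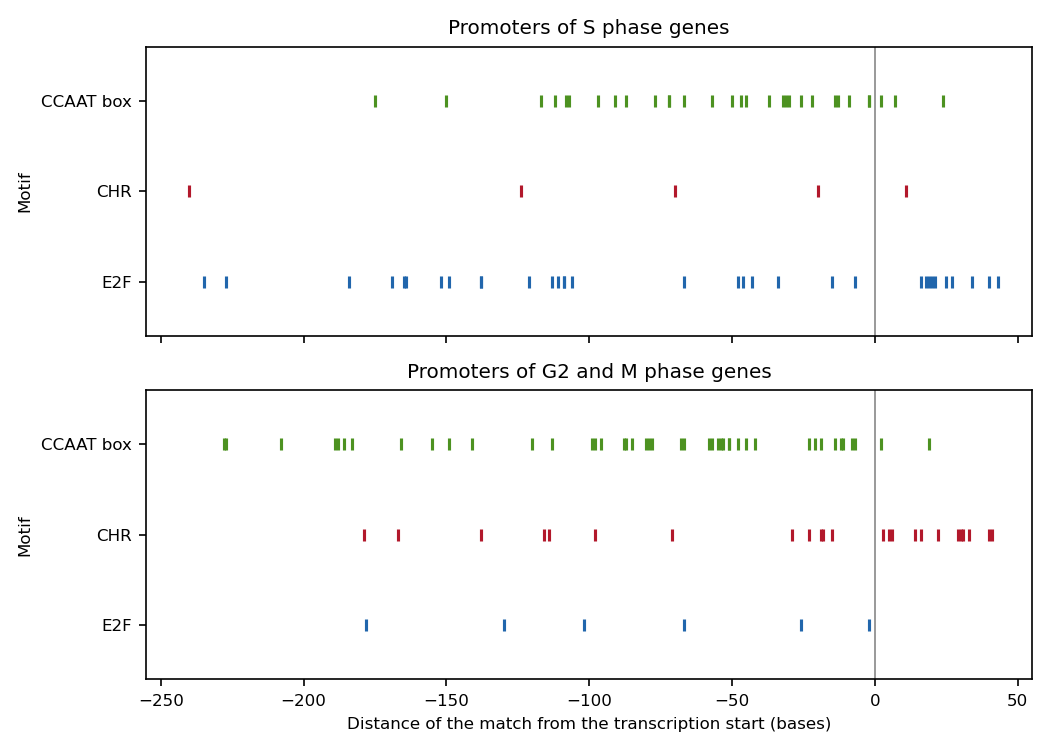
Distance in bases of each motif match from the transcription start (0, grey line), for 26 promoters of S phase genes (top) and 22 of G2 and M phase genes (bottom), each tick 1 match on either strand. E2F letters are frequent in the upper panel, CHR letters in the lower, and CCAAT boxes in both.

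Replication and mitosis genes were lower under every cocktail, and mitosis genes fell further than replication genes on the log2 scale of their medians. A gene was called at a Benjamini-Hochberg adjusted p under 0.05 over 17576 tested genes (edgeR, quasi-likelihood test). At day 2, 25 of 26 S phase genes were called lower under GMT (33.1% of all tested genes were), 26 under GHMT (33.3%) and 24 under AGHMT (37.4%). At day 7 the counts were 24 under GMT (36.0%), 24 under GHMT (35.6%) and 24 under AGHMT (38.1%). All 26 G2 and M genes were called lower in each of these 6 comparisons. Of all tested genes, 33.9%, 34.9% and 38.0% were higher in GMT, GHMT and AGHMT at day 2, and 37.1%, 36.3% and 38.6% at day 7. The median log2 fold change of the S phase list was -0.77, -0.83 and -0.87 under GMT, GHMT and AGHMT at day 2 and -1.03, -0.86 and -1.06 at day 7. For the G2 and M list it was -1.42, -1.34 and -1.44 at day 2 and -1.80, -1.60 and -1.73 at day 7. Over all tested genes the medians lay between -0.0033 and 0.012. The 3 comparisons of a day share their mock libraries.

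A 2-fold decrease separated the lists more than the calls did. At least 2-fold lower were 6, 10 and 8 S phase genes under GMT, GHMT and AGHMT at day 2 (11.1%, 11.4% and 15.2% of all tested genes) and 15, 9 and 14 at day 7 (14.7%, 14.1% and 15.4%). Of the G2 and M genes, 24, 24 and 22 were at day 2, and 25 under each cocktail at day 7. The S phase genes not called lower were Fen1 (GMT at day 2 and all 3 cocktails at day 7), E2f8 (AGHMT at day 2 and all 3 at day 7) and Ccne1 (AGHMT at day 2).

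Summed levels showed the same order. The 26 S phase genes together stood at 1149, 1035 and 1040.0 CPM in the mock libraries at day 2 and at 559 to 649 in the 9 cocktail libraries. At day 7 the sums were 975, 948 and 920.0 CPM in mock and 426 to 502 in the cocktails. Mock and cocktail libraries did not overlap on either day. The G2 and M sum was 1683, 1458 and 1499 CPM in mock at day 2 against 550.2 to 612, and 1102, 1119 and 1085 at day 7 against 289.8 to 394. Against the mock of the same day, the S phase sum was 58.2%, 57.8% and 53.5% in GMT, GHMT and AGHMT at day 2 and 48.6%, 52.4% and 46.9% at day 7. The G2 and M sum was 37.2%, 37.5% and 36.5% at day 2 and 28.8%, 31.8% and 32.4% at day 7. The ratio of the G2 and M sum to the S phase sum was 1.44 ± 0.0282 in mock at day 2 and 1.16 ± 0.0284 at day 7. In the cocktails it ran from 0.891 to 1.01 at day 2 and from 0.642 to 0.864 at day 7, below every mock library of the same day. 

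**Figure D2:**
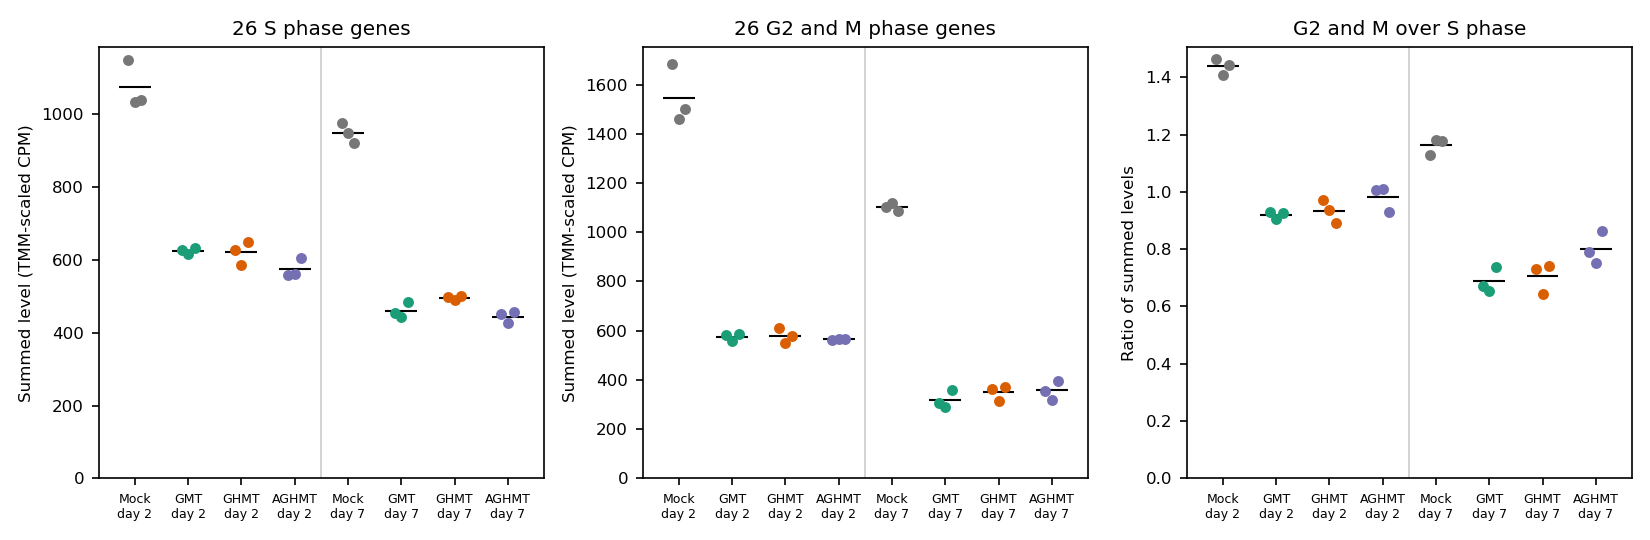
Summed level (TMM-scaled CPM) of the 26 S phase genes (left) and the 26 G2 and M phase genes (middle), and the ratio of the latter to the former (right), by group. Points are libraries and bars group means (n = 3): the mock libraries lie above all cocktail libraries of the same day in each panel.

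Summed levels of macrophage markers differed between groups too. The summed level of 16 such markers was 419 to 613 CPM in mock at day 7 and 46.3 to 74.2 in the cocktails. At day 2 it was 60.7 to 61.3 in mock, 47.3 to 60.3 in GMT, 38.5 to 45.4 in GHMT and 17.0 to 21.1 in AGHMT. None of the 16 was at 0 in a whole group, and 15 were tested. At day 2, 3, 9 and 12 were called lower under GMT, GHMT and AGHMT (33.1%, 33.3% and 37.4% of all tested genes). Called higher were 2, 1 and 0 (33.9%, 34.9% and 38.0%). At day 7, 14, 15 and 15 were called lower (36.0%, 35.6% and 38.1%) and 0 higher (37.1%, 36.3% and 38.6%). Of 10 endothelial markers, at most 5 reached 1 CPM in any group mean, and Cldn5 was at 0 in 6 groups. Their sum was 63.7 to 67.3 CPM in mock and 43.3 to 65.4 in the cocktails at day 2. By day 7 it was 63.8 to 67.8 in mock and 55.2 to 91.0 in the cocktails. Of the 8 tested, 5, 6 and 5 were called lower under GMT, GHMT and AGHMT at day 2. At day 7 the counts were 4, 4 and 3. Called higher were 0, 1 and 2, then 1, 1 and 2, beside those same shares of all tested genes. The part of either set of markers in the results on replication and mitosis genes was not tested.

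The 6 MCM genes encode the ring-shaped helicase that unwinds DNA at replication forks, and all 6 were called lower in each of the 6 comparisons. At day 2 Mcm2 read 74.4, 65.7 and 65.6 CPM in mock, 38.0, 36.2 and 38.4 in GMT, 32.5, 30.8 and 33.3 in GHMT, and 29.7, 28.99 and 28.8 in AGHMT. At day 7 Mcm2 read 60.0, 56.3 and 52.7 CPM in mock, 28.0, 25.9 and 29.1 in GMT, 24.9, 24.7 and 25.8 in GHMT, and 20.2, 18.2 and 22.1 in AGHMT. The 4 groups formed steps without overlap on both days, in the order mock, GMT, GHMT, AGHMT. The difference from mock was -0.87 ± 0.061 (log2 ± SE, adjusted p = 3.45e-12) under GMT at day 2 and -1.48 ± 0.065 (adjusted p = 1.66e-16) under AGHMT at day 7. Mcm6 did not follow this order: at day 2 its level was 121, 123 and 119 CPM in mock, 68.5, 68.6 and 64.2 in GMT, 105, 91.7 and 103 in GHMT and 59.4, 62.0 and 66.0 in AGHMT. The GHMT libraries lay between mock and the other cocktails, without overlap.

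Members that load or start the helicase were lower as well. Cdc6 and Cdt1 bring the MCM ring to origins before S phase. At day 2 Cdc6 read 12.4, 10.99 and 11.4 CPM in mock, 4.13, 4.54 and 5.17 in GMT, 5.06, 4.11 and 3.90 in GHMT, and 5.22, 4.77 and 4.21 in AGHMT. By day 7 Cdc6 read 6.92, 6.48 and 5.64 CPM in mock, 2.76, 2.77 and 3.87 in GMT, 3.698, 3.86 and 3.90 in GHMT, and 3.24, 3.07 and 3.81 in AGHMT. The cocktails overlapped each other and stayed below mock. Mock cells themselves had less Cdc6 at day 7. Cdt1 read 18.3, 15.5 and 16.5 CPM in mock, 7.54, 6.57 and 7.78 in GMT, 6.38, 6.59 and 6.60 in GHMT, and 5.65, 5.23 and 6.48 in AGHMT at day 2. On day 7 Cdt1 read 13.1, 11.4 and 9.10 CPM in mock, 5.19, 4.68 and 5.24 in GMT, 5.74, 6.09 and 5.51 in GHMT, and 3.96, 4.64 and 4.13 in AGHMT. The mock libraries were highest on both days. Cdc45, which joins MCM in the active helicase, had a log2 fold change of -1.11 under GMT and -1.12 under GHMT at day 2. Gins2, another subunit of that helicase, stood at -0.50 to -0.82 at day 2, but 67.3% of its exon bases overlap those of Gse1, and the counting setting for strand is not given in the sources used here. Dtl, which directs Cdt1 for destruction in S phase, is described below with the comparison of AGHMT and GHMT.

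Polymerase and clamp genes differed in how far they fell. Pcna, the sliding clamp, read 69.3, 65.5 and 58.7 CPM in mock, 47.1, 46.9 and 46.1 in GMT, 44.8, 46.1 and 50.9 in GHMT, and 40.0, 40.5 and 51.7 in AGHMT at day 2. For day 7 Pcna read 69.4, 66.4 and 63.5 CPM in mock, 44.4, 44.1 and 45.4 in GMT, 43.5, 44.8 and 44.7 in GHMT, and 44.4, 41.0 and 42.7 in AGHMT. Its mock libraries lay above all cocktail libraries, yet its decrease was small, at -0.47 ± 0.072 (log2 ± SE) under GMT at day 2 and -0.64 ± 0.073 under AGHMT at day 7. Pola1, the polymerase of the primase complex, read 27.1, 26.4 and 25.0 CPM in mock, 13.8, 13.4 and 14.99 in GMT, 13.9, 12.7 and 14.03 in GHMT, and 12.6, 13.8 and 13.0 in AGHMT at day 2. Its values at day 7 were 25.9, 25.7 and 26.2 CPM in mock, 9.94, 9.71 and 11.96 in GMT, 10.8, 9.82 and 10.8 in GHMT, and 10.3, 9.14 and 9.58 in AGHMT. The cocktails overlapped each other on both days. Prim1, the primase that works with Pola1, fell most of this role: by 1.6 on the log2 scale under GMT at day 2, 1.81 at day 7, and 1.71 under AGHMT at day 7. Fen1, the flap nuclease of lagging-strand processing, was called lower at day 2 under GHMT (-0.73, adjusted p = 0.0265) and AGHMT (-0.69, adjusted p = 0.0257). In GMT at day 2 and in the 3 cocktails at day 7 it did not pass, with -0.37, -0.24, 0.018 and -0.38. Its level was at most 1.05 CPM in any library, with a lowest count of 13, and 78.8% of its exon bases overlap the antisense gene Gm10143. The call under GHMT was lost without mock, day 2, replicate 1 (adjusted p = 0.104) or replicate 2 (0.0512), without GHMT, day 2, replicate 1 (0.095) or replicate 2 (0.112), and under DESeq2 (0.0702). The call under AGHMT was lost without the same mock libraries (0.104 and 0.0504), without AGHMT, day 2, replicate 1 (0.132), and under DESeq2 (0.0729).

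Nucleotide supply genes fell too. Rrm2, the small subunit of ribonucleotide reductase, read 86.0, 72.9 and 72.7 CPM in mock, 45.6, 45.4 and 45.9 in GMT, 45.7, 39.4 and 45.9 in GHMT, and 43.2, 40.7 and 44.3 in AGHMT at day 2. Rrm2 at day 7 read 71.5, 69.6 and 66.5 CPM in mock, 34.9, 34.2 and 38.4 in GMT, 40.0, 39.5 and 40.3 in GHMT, and 39.5, 37.02 and 39.0 in AGHMT. Its decrease ran from -0.76 to -0.95 (log2) over the 6 comparisons. Rrm1, the large subunit, fell by 0.71 under GMT at day 2 and by 1.42 at day 7 (log2). Tyms, thymidylate synthase, read 27.1, 25.6 and 25.7 CPM in mock, 13.95, 13.3 and 13.98 in GMT, 23.4, 20.1 and 22.2 in GHMT, and 17.6, 17.5 and 20.1 in AGHMT at day 2. For Tyms at day 7 the values were 21.8, 22.8 and 21.1 CPM in mock, 12.1, 11.4 and 12.5 in GMT, 16.7, 17.0 and 16.5 in GHMT, and 12.4, 13.7 and 13.4 in AGHMT. Its GHMT libraries lay above those of GMT on both days, as for Mcm6.

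Among the chromatin genes, Uhrf1, which brings the maintenance DNA methyltransferase to replicated DNA, fell further than any other S phase gene at day 2. It read 66.8, 55.7 and 54.9 CPM in mock, 18.6, 17.8 and 18.9 in GMT, 14.9, 17.0 and 15.9 in GHMT, and 14.8, 16.7 and 12.6 in AGHMT at day 2. At day 7 Uhrf1 read 37.1, 33.2 and 31.2 CPM in mock, 12.4, 12.1 and 15.1 in GMT, 13.8, 12.5 and 13.1 in GHMT, and 12.6, 10.5 and 13.6 in AGHMT. The difference from mock was -2.01 ± 0.10 (log2 ± SE) under AGHMT at day 2 and -1.47 ± 0.10 at day 7. Chaf1b, a subunit of the chromatin assembly factor, stood at -1.63 against mock under AGHMT at day 7, and Ung, which removes uracil from DNA, at -1.05. Slbp, which binds the stem-loop of histone messages, had the smallest changes of this role. It read 26.0, 25.6 and 27.3 CPM in mock, 18.8, 19.2 and 19.9 in GMT, 20.9, 21.0 and 23.9 in GHMT, and 21.2, 21.7 and 27.2 in AGHMT at day 2. Slbp at day 7 read 26.7, 27.2 and 28.8 CPM in mock, 17.8, 17.8 and 18.3 in GMT, 19.5, 20.7 and 20.3 in GHMT, and 18.7, 17.95 and 19.4 in AGHMT. Mock and AGHMT overlapped at day 2, where the call of -0.17 (adjusted p = 0.0330) was lost without mock, day 2, replicate 1 (0.0527), without mock, day 2, replicate 3 (0.112), without AGHMT, day 2, replicate 1 (0.23) and replicate 2 (0.17), under DESeq2 (0.0739), with no filter on low counts (0.0868) and with only the compared libraries fitted (0.16).

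The regulators of the G1 to S transition had the smallest changes: the median of these 4 genes ran from -0.67 to -0.22 over the 6 comparisons, nearest to 0 of the 14 roles in each. E2f1, an activating E2F factor, read 31.9, 31.8 and 31.5 CPM in mock, 23.4, 24.2 and 26.0 in GMT, 23.6, 26.6 and 26.5 in GHMT, and 25.8, 23.3 and 28.2 in AGHMT at day 2. At day 7 E2f1 read 38.5, 38.6 and 35.9 CPM in mock, 30.6, 30.3 and 28.5 in GMT, 29.95, 28.3 and 29.7 in GHMT, and 27.2, 28.6 and 26.9 in AGHMT. It stood at -0.30 to -0.45 against mock (log2) and was called lower in all 6 comparisons, with no overlap between mock and cocktail libraries. Ccne1 and Ccne2 encode E-type cyclins, partners of Cdk2 at the start of S phase. Ccne1 read 31.4, 27.2 and 28.0 CPM in mock, 20.4, 19.6 and 20.4 in GMT, 17.6, 17.3 and 20.1 in GHMT, and 26.5, 24.7 and 28.5 in AGHMT at day 2. By day 7 Ccne1 read 35.3, 32.4 and 30.8 CPM in mock, 17.2, 15.05 and 17.1 in GMT, 16.9, 19.1 and 18.2 in GHMT, and 17.3, 16.8 and 18.3 in AGHMT. Under AGHMT at day 2 it overlapped mock and did not pass (-0.12, adjusted p = 0.128), although it passed without AGHMT, day 2, replicate 3 (0.0363). Ccne2 read 14.6, 13.8 and 12.3 CPM in mock, 9.04, 9.47 and 10.6 in GMT, 10.8, 10.8 and 11.5 in GHMT, and 9.56, 10.8 and 12.3 in AGHMT at day 2. Its day 7 values were 14.8, 15.6 and 13.4 CPM in mock, 6.11, 6.00 and 7.25 in GMT, 7.99, 7.91 and 8.33 in GHMT, and 9.31, 8.62 and 9.22 in AGHMT. At day 7 Ccne2 fell by 1.18 on the log2 scale under GMT, 0.86 under GHMT and 0.69 under AGHMT, in groups that did not overlap.

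E2f8, an atypical repressor of the E2F family that is itself made in S phase, was the exception (ENSMUSG00000046179, chromosome 7, 48866429-48881596, minus strand, GRCm38). At day 2 E2f8 read 13.6, 10.6 and 11.5 CPM in mock, 7.73, 8.40 and 7.96 in GMT, 9.88, 8.58 and 7.83 in GHMT, and 10.6, 12.5 and 9.53 in AGHMT. At day 7 E2f8 read 7.95, 8.78 and 8.34 CPM in mock, 8.16, 8.62 and 8.76 in GMT, 11.7, 10.8 and 11.2 in GHMT, and 10.04, 8.81 and 9.70 in AGHMT. It was lower under GMT and GHMT at day 2 (-0.57 ± 0.10 and -0.44 ± 0.10, log2 ± SE). Under GHMT at day 7 it was higher than mock by 0.42 ± 0.10 (adjusted p = 4.26e-04), where 36.3% of all tested genes were called higher. E2f8 was the only S phase gene called higher against mock in any of the 6 comparisons. It did not pass under AGHMT at day 2 (-0.14), GMT at day 7 (0.028) or AGHMT at day 7 (0.19). Without AGHMT, day 2, replicate 2, the first of these passed (adjusted p = 0.0278).

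**Figure D3:**
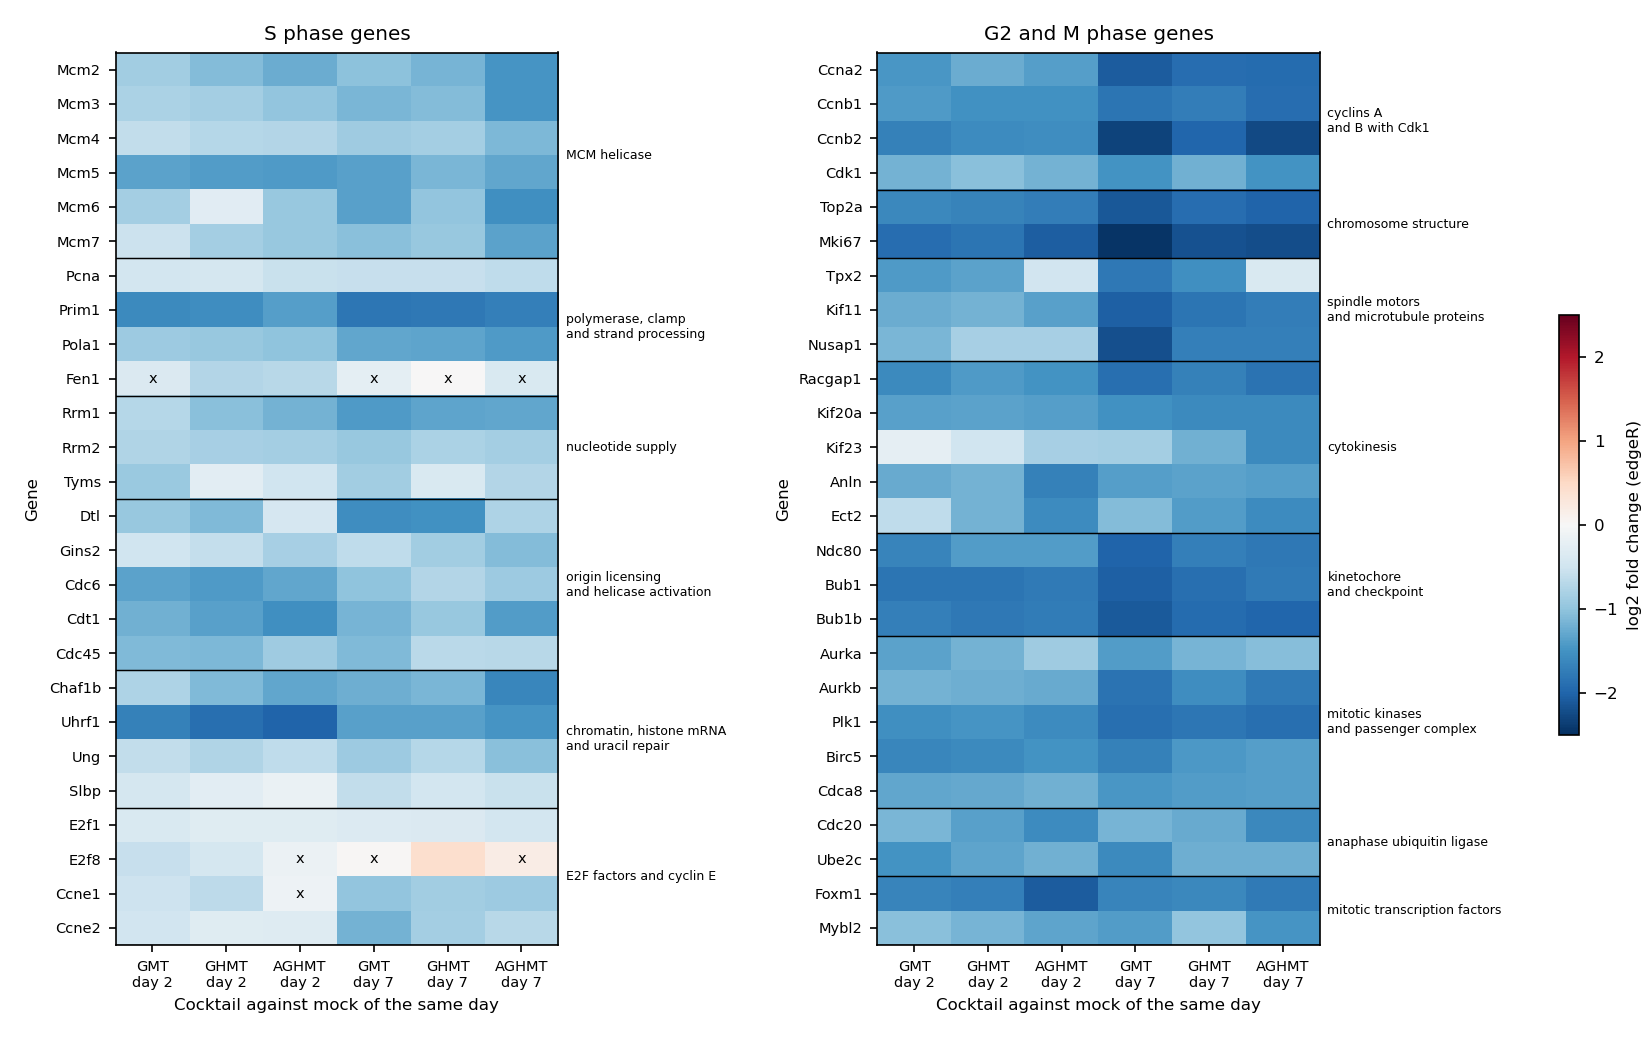
log2 fold change against the mock of the same day (edgeR, colour bar) for the 26 S phase genes (left) and 26 G2 and M phase genes (right), ordered by role, with an x where the change did not pass an adjusted p of 0.05. All G2 and M genes are lower throughout, Tpx2 is pale under AGHMT, and E2f8 alone is called higher, under GHMT at day 7.

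The G2 and M list opens with the cyclins and their kinase. Ccnb1, the mitotic cyclin B1, read 46.0, 40.9 and 39.9 CPM in mock, 15.2, 15.3 and 17.0 in GMT, 15.3, 14.1 and 14.8 in GHMT, and 14.1, 14.6 and 15.5 in AGHMT at day 2. At day 7 Ccnb1 read 27.6, 28.8 and 26.6 CPM in mock, 8.04, 7.28 and 8.14 in GMT, 9.33, 7.56 and 8.23 in GHMT, and 7.11, 6.53 and 8.45 in AGHMT. The cocktails overlapped each other and stood below mock, at -1.42 ± 0.075 (log2 ± SE) under GMT at day 2 and -1.91 ± 0.085 under AGHMT at day 7. Cdk1, the kinase that cyclin B activates and whose promoter is printed above, read 72.9, 60.9 and 63.1 CPM in mock, 30.8, 27.7 and 28.0 in GMT, 31.9, 28.7 and 34.6 in GHMT, and 25.7, 26.8 and 34.3 in AGHMT at day 2. For Cdk1 at day 7 the values were 52.1, 52.5 and 53.3 CPM in mock, 18.8, 17.0 and 20.4 in GMT, 22.6, 23.2 and 22.7 in GHMT, and 19.0, 16.2 and 20.6 in AGHMT. It fell by 1.19 under GMT at day 2 and 1.5 under AGHMT at day 7 on the log2 scale. Ccnb2, cyclin B2, fell by 2.32 under GMT and 2.26 under AGHMT at day 7, and Ccna2, cyclin A2, by 2.08 and 1.93.

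Top2a and Mki67 were high in mock cells and fell far. Top2a untangles sister chromatids, and the Ki-67 protein coats mitotic chromosomes and is widely used as a mark of cycling cells. Top2a read 229, 199 and 208 CPM in mock, 70.5, 67.0 and 69.8 in GMT, 70.9, 64.1 and 65.5 in GHMT, and 63.3, 67.4 and 60.1 in AGHMT at day 2. At day 7 Top2a read 149, 151 and 149 CPM in mock, 32.0, 30.7 and 40.9 in GMT, 42.8, 33.7 and 43.7 in GHMT, and 35.3, 33.8 and 42.3 in AGHMT. Mki67 (ENSMUSG00000031004, chromosome 7, 135689784-135716361, minus strand) read 250.3, 215 and 227 CPM in mock, 60.8, 59.6 and 65.5 in GMT, 74.3, 63.6 and 56.1 in GHMT, and 63.2, 62.5 and 39.4 in AGHMT at day 2. The cocktail libraries were all below mock. At day 7 Mki67 read 166, 170.0 and 174 CPM in mock, 28.6, 27.6 and 36.3 in GMT, 40.4, 29.4 and 42.9 in GHMT, and 36.1, 31.4 and 41.8 in AGHMT. Its difference from mock, -2.46 ± 0.15 (log2 ± SE, adjusted p = 1.72e-13) under GMT at day 7, was a 5.50-fold decrease and the lowest value of all 52 members in the 6 comparisons. At day 2 its AGHMT libraries were uneven, at 63.2, 62.5 and 39.4 CPM.

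The spindle genes include Tpx2, which stood higher under AGHMT than under the other cocktails. Kif11, the motor that pushes spindle poles apart, read 54.5, 46.9 and 49.0 CPM in mock, 19.6, 20.9 and 23.2 in GMT, 21.9, 22.7 and 21.9 in GHMT, and 19.5, 18.7 and 20.6 in AGHMT at day 2. At day 7 Kif11 read 39.6, 41.6 and 41.0 CPM in mock, 9.43, 8.59 and 11.6 in GMT, 12.1, 10.5 and 12.01 in GHMT, and 12.05, 10.7 and 13.7 in AGHMT. Tpx2, which activates Aurora A on spindle microtubules (ENSMUSG00000027469, chromosome 2, 152847964-152895321, plus strand), read 106, 91.8 and 94.7 CPM in mock, 36.9, 35.8 and 36.4 in GMT, 39.4, 37.2 and 38.7 in GHMT, and 69.9, 68.7 and 69.8 in AGHMT at day 2. Tpx2 at day 7 read 69.1, 72.1 and 70.9 CPM in mock, 20.2, 19.4 and 22.1 in GMT, 24.9, 22.9 and 26.0 in GHMT, and 56.3, 50.04 and 56.5 in AGHMT. The AGHMT libraries stood between mock and the other cocktails on both days, without overlap. Tpx2 stood against mock at -1.78 ± 0.060 under GMT and -0.38 ± 0.056 under AGHMT at day 7 (log2 ± SE). Nusap1, which binds spindle microtubules, stood against mock at -1.15 under GMT at day 2 and -2.20 at day 7.

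Cytokinesis genes did not all keep the same order of groups. Racgap1, part of the centralspindlin complex that sets the division plane, read 70.2, 63.4 and 62.1 CPM in mock, 21.8, 20.7 and 22.2 in GMT, 25.0, 22.5 and 25.7 in GHMT, and 23.2, 23.6 and 23.0 in AGHMT at day 2. At day 7 Racgap1 read 44.0, 45.4 and 44.0 CPM in mock, 11.5, 10.9 and 13.8 in GMT, 14.5, 13.1 and 13.7 in GHMT, and 12.1, 11.5 and 13.6 in AGHMT. GMT lay below the other cocktails at day 2, and the 3 cocktails overlapped at day 7. Ect2, which activates RhoA at that plane, read 39.9, 33.5 and 36.5 CPM in mock, 24.7, 22.5 and 23.5 in GMT, 16.2, 16.5 and 15.5 in GHMT, and 13.4, 12.1 and 11.6 in AGHMT at day 2. For Ect2 at day 7 the values were 29.4, 29.7 and 28.5 CPM in mock, 12.9, 13.2 and 14.99 in GMT, 12.5, 9.68 and 11.02 in GHMT, and 10.1, 8.32 and 10.8 in AGHMT. The groups stepped down from mock to GMT to GHMT to AGHMT, with only GHMT and AGHMT at day 7 in overlap. Kif23, the motor of centralspindlin, had the same order, at 36.3, 31.3, 25.7 and 20.4 CPM on average at day 2. Its call under GMT at day 2 (-0.22, adjusted p = 0.0257) was lost without mock, day 2, replicate 1 (0.154), without GMT, day 2, replicate 3 (0.108) and under DESeq2 (0.0569). Anln, an anchor of the contractile ring, stood against mock at -1.69 under AGHMT at day 2, and Kif20a, a motor of the central spindle, at -1.59 at day 7. Of the exon bases of Kif20a, 29.3% overlap Cdc23, which had group means of 60.5 to 82.3 CPM.

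Kinetochore and checkpoint genes fell under every cocktail on both days. Bub1, a checkpoint kinase, read 36.2, 32.8 and 33.7 CPM in mock, 10.03, 8.80 and 10.1 in GMT, 10.4, 8.98 and 9.66 in GHMT, and 9.07, 10.6 and 10.4 in AGHMT at day 2. At day 7 Bub1 read 21.4, 21.3 and 23.8 CPM in mock, 4.95, 4.63 and 6.56 in GMT, 6.02, 5.11 and 6.89 in GHMT, and 5.88, 6.33 and 7.32 in AGHMT. Ndc80, which joins kinetochores to microtubules, read 20.7, 18.1 and 18.6 CPM in mock, 6.41, 5.98 and 5.79 in GMT, 7.47, 6.33 and 7.93 in GHMT, and 6.84, 7.23 and 7.68 in AGHMT at day 2. In neither gene did mock overlap a cocktail. At day 7 Ndc80 read 14.4, 14.8 and 15.1 CPM in mock, 3.95, 3.26 and 3.87 in GMT, 4.34, 4.65 and 4.59 in GHMT, and 4.44, 3.85 and 4.52 in AGHMT. Bub1b, the checkpoint partner of Bub1, fell by 2.09 under GMT at day 7 on the log2 scale.

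Mitotic kinases and the passenger complex fell in all 6 comparisons too. Plk1, which acts from mitotic entry to exit, read 42.2, 38.0 and 38.1 CPM in mock, 13.5, 12.5 and 14.6 in GMT, 14.9, 12.8 and 14.5 in GHMT, and 13.2, 13.5 and 13.1 in AGHMT at day 2. At day 7 Plk1 read 26.3, 25.1 and 23.5 CPM in mock, 6.47, 5.94 and 7.71 in GMT, 7.23, 6.82 and 7.25 in GHMT, and 6.95, 5.39 and 7.76 in AGHMT. Aurkb, the kinase of the passenger complex, read 24.0, 19.7 and 20.3 CPM in mock, 9.25, 9.05 and 9.88 in GMT, 8.99, 8.65 and 9.66 in GHMT, and 8.75, 8.78 and 9.03 in AGHMT at day 2. At day 2 GHMT overlapped GMT and AGHMT, which did not overlap each other. At day 7 Aurkb read 17.2, 17.3 and 15.1 CPM in mock, 4.48, 4.63 and 4.76 in GMT, 5.74, 5.30 and 5.81 in GHMT, and 4.72, 3.98 and 5.83 in AGHMT. Birc5, survivin, which anchors that complex, read 35.2, 31.2 and 33.1 CPM in mock, 10.6, 10.7 and 10.7 in GMT, 11.1, 10.4 and 11.4 in GHMT, and 10.2, 10.1 and 15.1 in AGHMT at day 2. All of its cocktail libraries lay below its mock libraries. Birc5 at day 7 read 20.7, 21.5 and 20.004 CPM in mock, 6.23, 5.88 and 7.23 in GMT, 8.18, 7.42 and 7.38 in GHMT, and 8.09, 6.50 and 9.28 in AGHMT. Cdca8, the fourth subunit, stood against mock at -1.45 and Aurka at -1.39 under GMT at day 7 (log2).

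The ubiquitin ligase of anaphase was represented by its activator and its conjugating enzyme. Cdc20, the activator, read 56.2, 48.8 and 50.7 CPM in mock, 24.0, 22.6 and 24.0 in GMT, 21.6, 19.6 and 19.7 in GHMT, and 16.3, 15.9 and 19.95 in AGHMT at day 2. At day 7 Cdc20 read 36.7, 35.2 and 32.0 CPM in mock, 15.2, 14.5 and 16.9 in GMT, 14.7, 13.9 and 14.9 in GHMT, and 10.9, 10.5 and 12.6 in AGHMT. Its AGHMT mean was the lowest of the cocktails on both days. Ube2c, the enzyme, read 48.9, 41.9 and 41.4 CPM in mock, 15.7, 15.4 and 15.7 in GMT, 17.7, 16.6 and 18.8 in GHMT, and 16.1, 18.5 and 22.9 in AGHMT at day 2. At day 7 Ube2c read 27.3, 28.95 and 25.5 CPM in mock, 8.28, 7.88 and 10.96 in GMT, 11.6, 11.8 and 11.8 in GHMT, and 11.2, 10.9 and 12.8 in AGHMT. For Ube2c the GMT mean was the lowest on both days. Of its exon bases, 22.8% overlap Tnnc2, a muscle troponin whose highest group mean was 0.0221 CPM.

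The factors that drive the mitotic wave fell with it. Foxm1 read 57.2, 47.2 and 48.5 CPM in mock, 16.3, 15.7 and 16.5 in GMT, 16.6, 15.2 and 14.9 in GHMT, and 12.6, 12.4 and 10.97 in AGHMT at day 2. At day 7 Foxm1 read 34.5, 32.4 and 30.1 CPM in mock, 9.61, 9.65 and 11.7 in GMT, 10.9, 9.41 and 11.6 in GHMT, and 8.78, 9.01 and 10.9 in AGHMT. Its AGHMT libraries were lowest at day 2, at -2.09 ± 0.090 (log2 ± SE) against mock. Mybl2, which is B-Myb, read 12.8, 10.99 and 9.72 CPM in mock, 6.20, 4.65 and 5.28 in GMT, 5.29, 4.94 and 4.76 in GHMT, and 4.87, 4.37 and 4.21 in AGHMT at day 2. The mock libraries lay above all others. At day 7 Mybl2 read 7.62, 6.54 and 6.56 CPM in mock, 2.55, 2.08 and 3.20 in GMT, 3.81, 3.15 and 3.58 in GHMT, and 2.30, 2.25 and 2.91 in AGHMT. Per kilobase of exon, averaged over the 24 libraries, Pcna had the highest level of all 52 members (20.9 CPM per kb) and Fen1 the lowest (0.265). Cdc20 was the highest of the G2 and M list (12.7).

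The extremes of each list are given as log2 fold changes against mock. At day 2 the lowest S phase values were Uhrf1 -1.68, Prim1 -1.60 and Cdc6 -1.33 under GMT, Uhrf1 -1.89, Prim1 -1.55 and Cdc6 -1.41 under GHMT, and Uhrf1 -2.01, Cdt1 -1.53 and Mcm5 -1.41 under AGHMT. The highest were Fen1 -0.37, E2f1 -0.37 and Slbp -0.45 under GMT, Tyms -0.25, Slbp -0.26 and Mcm6 -0.27 under GHMT, and Ccne1 -0.12, E2f8 -0.14 and Slbp -0.17 under AGHMT. At day 7 the lowest were Prim1 -1.81, Dtl -1.55 and Rrm1 -1.42 under GMT, Prim1 -1.80, Dtl -1.51 and Uhrf1 -1.37 under GHMT, and Prim1 -1.71, Chaf1b -1.63 and Mcm6 -1.53 under AGHMT. Prim1 was the lowest of the list under each cocktail at day 7. The highest at day 7 were E2f8 0.028, Fen1 -0.24 and E2f1 -0.34 under GMT, E2f8 0.42, Fen1 0.018 and E2f1 -0.36 under GHMT, and E2f8 0.19, Fen1 -0.38 and E2f1 -0.45 under AGHMT. For G2 and M genes the lowest at day 2 were Mki67 -1.90, Bub1 -1.83 and Bub1b -1.70 under GMT, Mki67 -1.83, Bub1 -1.82 and Bub1b -1.78 under GHMT, and Foxm1 -2.09, Mki67 -2.07 and Bub1 -1.77 under AGHMT, and the highest were Kif23 -0.22, Ect2 -0.64 and Mybl2 -1.05, Kif23 -0.50, Nusap1 -0.84 and Cdk1 -1.05, and Tpx2 -0.49, Nusap1 -0.82 and Kif23 -0.83. Foxm1 was the lowest under AGHMT and Mki67 under GMT and GHMT. At day 7 the lowest were Mki67 -2.46, Ccnb2 -2.32 and Nusap1 -2.20 under GMT, Mki67 -2.18, Ccnb2 -1.98 and Bub1b -1.92 under GHMT, and Ccnb2 -2.26, Mki67 -2.22 and Top2a -2.01 under AGHMT, and the highest Kif23 -0.85, Ect2 -1.09 and Cdc20 -1.16, Mybl2 -0.98, Aurka -1.17 and Cdk1 -1.20, and Tpx2 -0.38, Aurka -1.07 and Ube2c -1.23.

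Mock cells also had less of these transcripts at day 7 than at day 2, above all those of mitosis. Of the G2 and M list, 25 of 26 genes were called lower (25.8% of all tested genes were), with a median log2 fold change of -0.54. Nusap1 did not pass (0.045). The lowest values were Aurka -0.74, Ube2c -0.69 and Mybl2 -0.69. Of the S phase list, 13 were called lower, led by Cdc6 -0.87, Uhrf1 -0.81 and Cdt1 -0.58, and 2 were called higher, E2f1 (0.25) and Ccne1 (0.19), where 29.7% of all tested genes were. Ccne1 lost this call without mock, day 2, replicate 2 or replicate 3, or mock, day 7, replicate 1, which left 1 gene called higher. Within each cocktail all 26 G2 and M genes were lower at day 7 than at day 2, with 24.4%, 24.6% and 24.9% of all tested genes lower in GMT, GHMT and AGHMT. The S phase counts were 19, 15 and 20. Mcm6 was the lowest S phase gene in each of these (-1.02, -1.23 and -1.09), and Ccnb2 or Ccna2 the lowest of the G2 and M list. Of all tested genes 27.5%, 25.6% and 29.5% were higher. E2f1 was higher at day 7 in GMT (0.28) and, with E2f8 (0.36), in GHMT (0.20), where 2 became 1 without GHMT, day 2, replicate 1. No S phase gene was higher at day 7 in AGHMT, and 1 was without AGHMT, day 2, replicate 3.

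Whether the gap to mock itself grew between the days was tested as an interaction, the log2 fold change against mock at day 7 minus that at day 2. For GMT it was lower in 15 of 26 G2 and M genes (25.3% of all tested genes) and higher in 0 (24.3%). The lowest were Nusap1 -1.05, Kif11 -0.80 and Aurkb -0.65. In the S phase list 10 were lower, led by Rrm1 -0.70, Ccne2 -0.69 and Dtl -0.61, and E2f8 was higher (0.60 ± 0.14, log2 ± SE). For GHMT, 9 G2 and M genes were lower (26.0%), led by Nusap1 -0.88, Kif23 -0.71 and Ccna2 -0.66. The S phase list was divided: Mcm6 (-0.72), Ccne2 (-0.56), Dtl, Pola1 and Rrm1 were lower, and E2f8 (0.87), Cdc6 (0.68), Uhrf1 (0.53), Cdc45, Cdt1 and Mcm5 were higher (23.3%). Mcm5 lost this call in 10 of 17 alternatives run. For AGHMT, 10 G2 and M genes were lower (26.1%), led by Nusap1 -0.89, Kif23 -0.76 and Ccnb2 -0.71, and Foxm1 (0.33) and Anln (0.30) were higher (24.8%). In its S phase list 12 were lower, led by Ccne1 -0.79, Mcm6 -0.58 and Mcm3 -0.50, and Uhrf1 was higher (0.54). The 3 tests share their mock libraries. Several of these counts rest on few libraries. The 9 G2 and M genes under GHMT became 4 without mock, day 2, replicate 2 or 3, GHMT, day 2, replicate 1 or 3, or mock, day 7, replicate 2, and 5 without GHMT, day 7, replicate 2. The divided S phase counts of 5 and 6 became 9 and 3 without mock, day 2, replicate 1, and the 6 became 3 without mock, day 7, replicate 3. Foxm1 and Anln were both lost, leaving 0, without mock, day 2, replicate 1, mock, day 7, replicate 2 or 3, or AGHMT, day 7, replicate 3, and under DESeq2, and 1 was left without AGHMT, day 2, replicate 2, mock, day 7, replicate 1, or AGHMT, day 7, replicate 1. The single S phase gene called higher became 2 for GMT without mock, day 2, replicate 2 or 3, mock, day 7, replicate 1, or GMT, day 7, replicate 2. For AGHMT it became 2 without mock, day 2, replicate 2, AGHMT, day 2, replicate 1 or 2, or AGHMT, day 7, replicate 2.

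**Figure D4:**
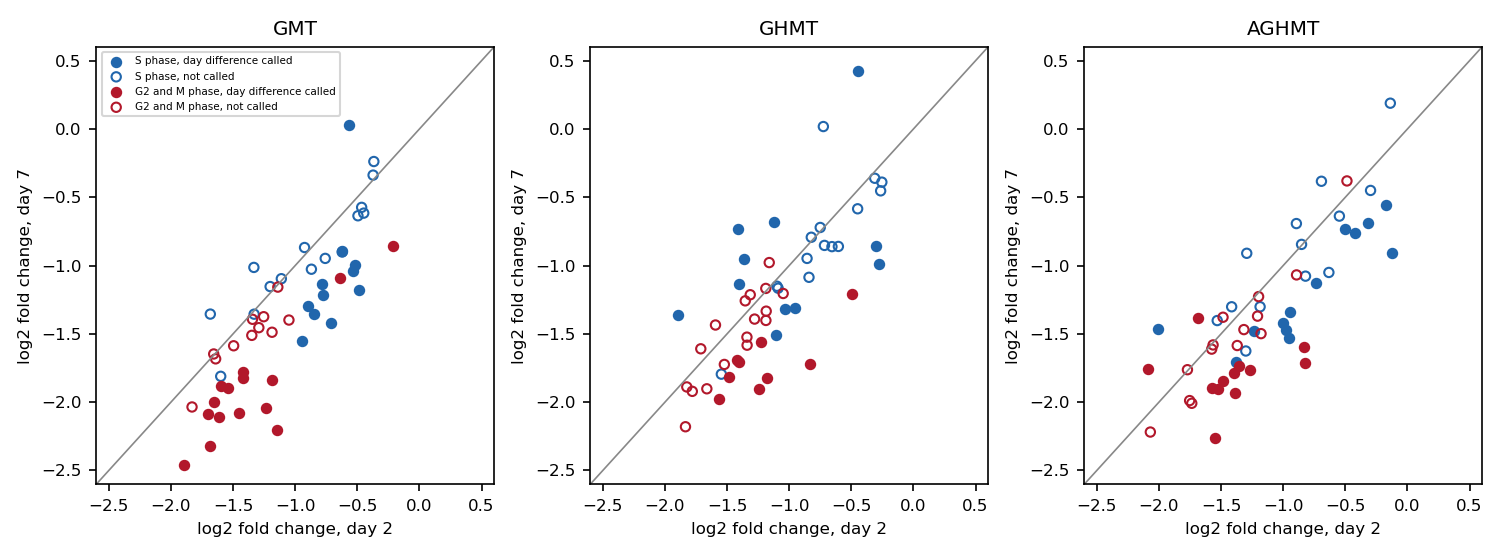
log2 fold change against mock at day 7 (y axis) against that at day 2 (x axis) for the 52 genes under GMT, GHMT and AGHMT, with S phase genes in blue, G2 and M phase genes in red, and filled points where the day difference was called. The grey line marks equal change, and most filled red points lie under it.

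With Hand2 added to GMT, members differed in both directions. Other factors differed between these groups too: at day 2 Gata4 stood at 1479 ± 45.2 CPM in GHMT and 1143 ± 24.9 in GMT. The part of such levels was not tested. GHMT against GMT at day 2 gave 3 S phase genes higher (23.1% of all tested genes) and 5 lower (21.7%), and 3 G2 and M genes in each direction. Tyms (0.67 ± 0.064, log2 ± SE, adjusted p = 2.85e-09) and Mcm6 (0.57 ± 0.052, adjusted p = 1.02e-09) were the highest of all 52, and with Slbp (0.18) the S phase genes that rose. Chaf1b (-0.33), Mcm7 (-0.32), Rrm1 (-0.32), Mcm2 and Dtl were lower. Of 11 alternatives run, 8 lost the call of Dtl and 6 that of Slbp. In the G2 and M list Nusap1 (0.31), Ndc80 and Ccna2 were higher, and Ect2 (-0.55 ± 0.086), Kif23 (-0.28) and Cdc20 were lower. At day 7, 6 S phase genes were higher (18.7%) and 0 lower (18.8%), and 7 G2 and M genes higher and 2 lower. Tyms (0.48), Cdc45 (0.42), E2f8 (0.40), Mcm6 (0.37), Ccne2 and Mcm5 were the S phase genes. Nusap1 (0.48), Mybl2 (0.42), Ube2c (0.37), Ndc80, Cdk1, Aurkb and Tpx2 rose in the other list, and Kif23 (-0.35) and Ect2 (-0.31) fell. Apart from the 6 and 7 of 26 that were higher at day 7, these shares were close to or below those of all tested genes. That 7 became 3 without GMT, day 7, replicate 1, 2 without its replicate 2, 12 without its replicate 3, 4 without GHMT, day 7, replicate 1 and 3 without its replicate 3. The 2 lower became 1 without GMT, day 7, replicate 3 or GHMT, day 7, replicate 2, and 1 S phase gene was lower without GMT, day 7, replicate 2 or GHMT, day 7, replicate 2. At day 2 the 5 lower S phase genes became 3 without GMT, day 2, replicate 2 or 3, or GHMT, day 2, replicate 1 or 2. The 3 lower G2 and M genes became 1 without GHMT, day 2, replicate 2, and the 3 higher became 1 without GMT, day 2, replicate 1 or 2, or GHMT, day 2, replicate 3, and 0 without GHMT, day 2, replicate 1.

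With Akt1 added to GHMT, Tpx2 and Dtl were higher on both days. Levels of the other factors also differed between AGHMT and GHMT. At day 7 Gata4 stood at 633 ± 5.18 CPM in AGHMT and 1142 ± 85.9 in GHMT. Tbx5 stood at 1730 ± 25.9 CPM in AGHMT and 2746 ± 62.0 in GHMT on that day. Hand2 went the other way, at 1125 ± 10.9 and 978 ± 42.1 CPM. At day 2 Gata4 stood at 1133 ± 38.7 CPM in AGHMT and 1479 ± 45.2 in GHMT. The part of such levels was not tested. The S phase list had 3 genes higher (25.7% of all tested genes) and 4 lower (27.0%) at day 2, and 1 higher (25.0%) and 9 lower (23.6%) at day 7. The G2 and M list had 2 higher and 5 lower at day 2, and 1 higher and 4 lower at day 7. Apart from the 9 of 26, these shares were below those of all tested genes. Tpx2 was higher by 0.85 ± 0.057 (log2 ± SE, adjusted p = 4.57e-12) at day 2 and by 1.14 ± 0.060 (adjusted p = 3.92e-14) at day 7. Dtl (ENSMUSG00000037474, chromosome 1, 191537356-191575544, minus strand) read 20.4, 18.8 and 20.5 CPM in mock, 10.2, 10.4 and 10.4 in GMT, 8.92, 8.68 and 10.1 in GHMT, and 14.95, 14.99 and 14.7 in AGHMT at day 2. At day 7 Dtl read 18.7, 18.5 and 19.4 CPM in mock, 6.59, 6.22 and 6.48 in GMT, 6.89, 6.34 and 6.69 in GHMT, and 10.4, 11.1 and 11.8 in AGHMT. Its AGHMT libraries lay between mock and the other cocktails on both days. The rise over GHMT was 0.69 ± 0.063 at day 2 and 0.74 ± 0.067 at day 7. Ccne1 (0.54), E2f8 (0.30) and Aurka (0.30) were higher at day 2 alone, and the difference between the days was not tested for them. Mcm6 was lower on both days (-0.68 ± 0.052 and -0.54 ± 0.056), and so was Tyms (-0.25 and -0.34). Gins2 and Rrm1 were lower at day 2, and Chaf1b (-0.47), Cdt1 (-0.45), Mcm7, Mcm3, Mcm2, Mcm4 and E2f8 (-0.24) at day 7. Of 11 alternatives run, 8 lost the call of Gins2, 6 that of Rrm1 and 6 that of E2f8 at day 7. In the other list Anln (-0.50), Ect2, Foxm1 (-0.38), Kif23 and Cdc20 were lower at day 2, and Mybl2 (-0.49), Kif23, Cdc20 and Cdk1 at day 7. Of the MCM genes, 5 of 6 were called lower at day 7. GHMT libraries enter this comparison and the last, so Mcm6 and Tyms, high in GHMT, move in opposite directions in the 2. The 4 lower S phase genes at day 2 became 2 without GHMT, day 2, replicate 1 or 3, or AGHMT, day 2, replicate 1 or 2, and the 2 higher G2 and M genes became 1 without GHMT, day 2, replicate 2. The 4 lower at day 7 became 2 without AGHMT, day 7, replicate 2 and 8 without its replicate 3.

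**Figure D5:**
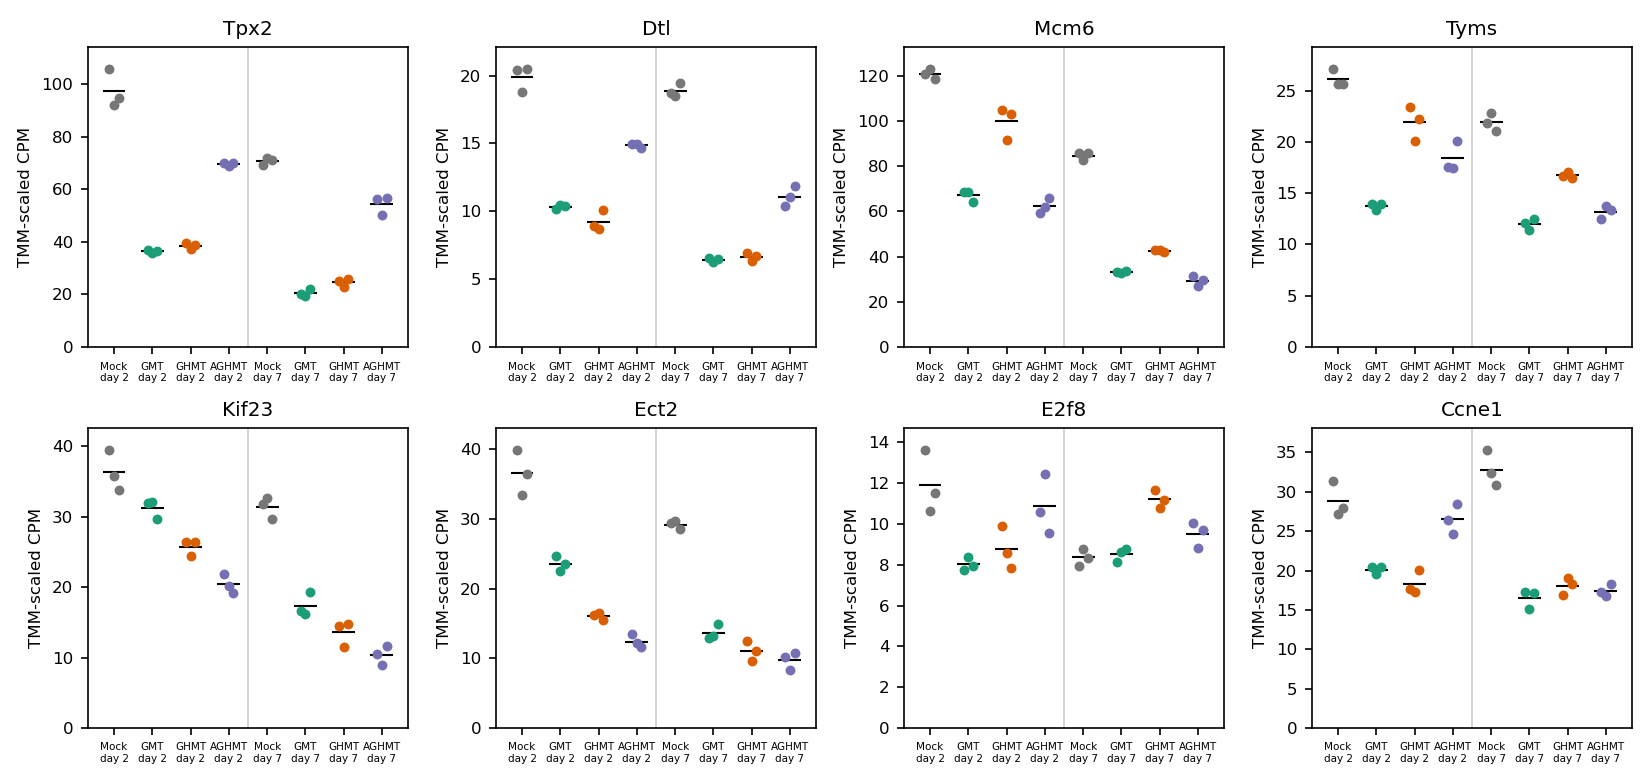
Level (TMM-scaled CPM, y axis from 0) of 8 genes by group, with points for libraries and bars for means (n = 3). Tpx2 and Dtl are highest among the cocktails in AGHMT, Mcm6 and Tyms in GHMT, Kif23 and Ect2 step down from mock to AGHMT, and E2f8 is highest in GHMT at day 7.

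Other genes of the same processes, from lists of 43 replication and 45 mitosis genes, were mostly lower too. In AGHMT at day 7, 36 other replication genes were lower (38.1% of all tested genes were) and 5 higher (38.6%) than mock, with a median log2 fold change of -0.76. Hells, a chromatin remodeller, fell by 1.85, and Pold1, the catalytic subunit of polymerase delta, by 1.61. Gins3, a subunit of the helicase with Gins2, went the other way (2.82 ± 0.083), and so did Orc5 of the origin recognition complex (0.32). Gins3 stood at 7.41 CPM in mock, 53.2 in GMT, 29.7 in GHMT and 52.4 in AGHMT at day 7. Against the same shares of all tested genes, 42 of the other mitosis genes were lower and 2 higher, with a median of -1.60. Ckap2l, which binds spindle microtubules, fell by 2.06 and Ncapd2, a condensin subunit, by 1.62, while Pttg1, securin, was higher by 0.93 ± 0.12 and Gtse1 by 0.25.

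Of 15 regulators of the retinoblastoma, E2F and MuvB families, 7 were lower and 6 higher in AGHMT at day 7, near the shares of all tested genes (38.1% lower and 38.6% higher). E2f7, an atypical E2F repressor like E2f8, fell by 1.61, and Rbl1, a pocket protein also called p107, by 1.15. E2f6 (0.85), another repressor, and Lin52 (0.96), a MuvB subunit, were higher. Of 8 G1 cyclins and kinases 7 were lower and 1 higher than mock, beside those same shares: Cdk4 fell by 1.26 and Cdk2 by 0.75, and Cdk6 was higher by 0.74. Against GHMT at day 7, AGHMT had 7 of these 8 lower (23.6% of all tested genes were) and 0 higher (25.0%). Overlapping exons touch further members named here: 12.5% of the exon bases of Ccna2 overlap Exosc9, 17.4% of those of Ccne2 overlap Ints8, and 11.2% of those of E2f8 overlap Gm2788. Their reads cannot be told apart without a strand setting, and 36 of the 52 members share no exon bases with exons of another gene.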

How the data were processed

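RNA from mock or retrovirally transduced mouse embryonic fibroblasts was sequenced in 24 libraries, grouped by the labels. The values analysed are the deposited raw counts of each gene. A second deposited table holds log2 CPM, with values under 1 CPM set to 0. It equals log2 CPM computed from the counts within 0.00603 and served only as a check. The tools listed in the submitters' processing notes are HISAT2 2.0.1, Trim Galore 0.4.1, DESeq2 1.6.3 and featureCounts 1.4.6, with the build GRCm38. The labels state neither a strand setting nor a release of the annotation.

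Counts of 17576 genes that passed filterByExpr were fitted with edgeR 4.0.16 (TMM, quasi-likelihood F test, R 4.3.3), with 1 mean per group, 16 residual degrees of freedom and a common biological coefficient of variation of 5.55%. Tests were two-sided, over 17 comparisons, each adjusted by Benjamini-Hochberg over all tested genes. SE is the log2 fold change divided by the square root of F. Libraries held 29345957 to 37495178 counts, so only genes of low counts, such as Fen1, are limited by depth. All pairs of replicates differed by more than counting error (lowest chi-square per degree of freedom 1.49).

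The members, lists and tests were chosen with earlier results of these data known. By rule the text gives every library for 30 members covering each role, the 3 highest and 3 lowest members against mock, members called against their list, members not called where 5 or fewer were not, and, of other lists, the 2 members of smallest adjusted p in each direction in AGHMT against mock at day 7. In comparisons with few calls the called members are named in place of the extremes, and Mcm6, Dtl, Kif23 and some further members were named after their values were seen. The promoters of Mcm6 and Cdk1 were chosen after their motif matches were seen. Promoters came from RefSeq (GRCm38.p6), positions and exon overlaps from GENCODE M21 on GRCm38. The code was tested on simulated data. Alternatives were DESeq2 1.42.0, RLE scaling, no filter, a fit to the compared libraries alone, leaving out each library, and the replicate number as a block.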

Additional observations from a re-analysis of the deposited data

Results flagged for a closer look

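For each cocktail the change against mock differed between day 7 and day 2 in some members, by an interaction test in edgeR over all tested genes (adjusted p under 0.05). Under GMT the change was lower at day 7 for 10 S phase genes and 15 G2 and M genes, and higher for 1 S phase gene, E2f8. Under GHMT it was lower for 5 S phase and 9 G2 and M genes, and higher for 6 S phase genes. Under AGHMT it was lower for 12 S phase and 10 G2 and M genes, and higher for 1 S phase gene, Uhrf1, and 2 G2 and M genes, Foxm1 and Anln. Of all tested genes, 25.3%, 26.0% and 26.1% were lower and 24.3%, 23.3% and 24.8% higher in the same 3 tests, so the S phase counts under GHMT lie near the background. What these differences rest on was not tested. Groups of 3 libraries are too small for a test of single outlying samples.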

How the results depend on the processing

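Against mock, every count of members called lower stayed within 1.5 times its reported value under all alternatives run. The direction of a member changed in 4 cases, none of them called: E2f8 under GMT at day 7 became -0.011 without mock, day 7, replicate 1, and Fen1 under GHMT at day 7 became -9.31e-04, -0.092 and -0.30 without mock, day 7, replicate 2, replicate 3 and GHMT, day 7, replicate 1. Over all alternatives run, the 2 values ran from -0.011 to 0.063 and from -0.30 to 0.21. E2f8 under AGHMT at day 7 passed when only the compared libraries were fitted (adjusted p = 0.0284).

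Small counts in the other comparisons moved. With only the compared libraries, G2 and M genes higher in GHMT against GMT at day 2 became 5, S phase genes lower in AGHMT against GHMT at day 2 became 2, S phase genes lower in GHMT against GMT at day 7 became 1, S phase genes with a higher GMT effect at day 7 became 2, and G2 and M genes with a higher AGHMT effect became 1. With no filter these were 2 (S phase, AGHMT against GHMT, day 2), 12 (G2 and M, higher, GHMT against GMT, day 7) and 2 (S phase, higher GMT effect). DESeq2 gave 0 G2 and M genes with a higher AGHMT effect. The causes were not tested.

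With each library left out in turn, GHMT against GMT gave at day 2 3 to 6 S phase genes lower, 1 to 3 G2 and M genes lower and 0 to 4 higher, and at day 7 0 to 1 S phase genes lower, 1 to 2 G2 and M genes lower and 2 to 12 higher. AGHMT against GHMT gave at day 2 2 to 6 S phase genes lower and 1 to 2 G2 and M genes higher, and at day 7 2 to 8 G2 and M genes lower. Between the days, 1 to 2 S phase genes were higher in mock, 1 to 2 in GHMT and 0 to 1 in AGHMT. The day difference gave 1 to 2 S phase genes higher for GMT, 5 to 9 lower and 3 to 6 higher for GHMT with 4 to 10 G2 and M genes lower, and 1 to 2 S phase and 0 to 2 G2 and M genes higher for AGHMT.

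Same-numbered replicates mostly did not deviate together (correlations -0.074 to 0.27, and in no comparison all over 0.1), so the numbers were not taken as pairs. The highest value, 0.27, was between replicate 3 of AGHMT and of GHMT at day 2. Replicates 1 and 2 of those groups gave 0.094 and 0.072. With the replicate number as a block, 47 of 56 counts were the same and the others shifted by at most 2, for example from 6 to 8 S phase genes higher in GHMT against GMT at day 7.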
